A study of Mus musculus with 5 samples.

Results

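Runx1 and Cbfb encode the DNA-binding and the non-DNA-binding subunit of the core binding factor, a transcription factor complex. They were followed here in single auditory neurons of mice with a conditional Runx1 allele. Both genes were taken by symbol from the deposited matrix and make up 2 of its 14715 genes; both are measured in every class of neuron. The CKO group was bhlhb5-Cre/+; Ai14/+; Runx1F/F, so its neurons carried a bhlhb5-driven Cre recombinase that acts from embryonic stages, a tdTomato reporter that Cre switches on, and floxed Runx1 on both chromosomes. The control group was bhlhb5-Cre/+; Ai14/+, so Cre and the reporter were shared by all animals. There were 3 CKO and 2 control samples, all at postnatal day 30 to 33 and with both sexes included. Cochleae were dissociated, tdTomato-positive spiral ganglion neurons were enriched by cell sorting, and RNA was read from its 3′ end on the 10x Genomics platform, in which each captured molecule counts once through its unique molecular identifier (UMI).

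Runx1 recognises the DNA word TGTGGT through its Runt domain, and Cbfb, which does not touch DNA itself, binds that domain, raises its affinity for DNA and protects the protein from degradation. The complex can activate or repress a gene, depending on the cofactors it recruits. It is best known from the origin of blood stem cells, and in sensory ganglia Runx1 is known for the choice between classes of pain-sensing neurons. In the spiral ganglion, type I neurons contact inner hair cells and fall into subtypes Ia, Ib and Ic, and the rarer type II neurons contact outer hair cells.

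The mouse Runx1 gene (ENSMUSG00000022952.17) occupies bases 92601466 to 92826149 of chromosome 16, minus strand (mm10, GENCODE annotation), and has 7 annotated transcripts. Its RefSeq entries start at sites 128745 bases apart, known as the distal and the proximal promoter. Both windows are shown because the distal one, unlike the proximal one, holds the word that the complex itself binds. They run from 250 bases before to 50 bases after the start, in RefSeq build GRCm38.p6 on the minus strand, at chr16:92826025-92826324 for the distal start and chr16:92697280-92697579 for the proximal one. Capitals mark matches to TGTGGT read on either strand, which appears as ACCACA when the match is on the opposite strand.
Runx1 distal: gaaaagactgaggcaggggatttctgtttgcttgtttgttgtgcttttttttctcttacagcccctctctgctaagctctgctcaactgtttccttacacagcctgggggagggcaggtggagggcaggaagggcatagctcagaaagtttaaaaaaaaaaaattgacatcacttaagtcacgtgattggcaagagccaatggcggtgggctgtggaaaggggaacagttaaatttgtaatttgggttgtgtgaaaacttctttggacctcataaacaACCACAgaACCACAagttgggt
Runx1 proximal: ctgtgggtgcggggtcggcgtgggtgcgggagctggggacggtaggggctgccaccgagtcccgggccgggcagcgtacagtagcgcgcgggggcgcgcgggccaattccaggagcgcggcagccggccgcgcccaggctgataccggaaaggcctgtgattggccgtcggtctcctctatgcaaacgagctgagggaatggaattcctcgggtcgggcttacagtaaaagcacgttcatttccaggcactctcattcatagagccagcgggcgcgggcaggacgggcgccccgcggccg
The distal window holds 2 matches, both on the opposite strand, whose first bases are 29 and 37 bases into the transcript with the start counted as 1. The proximal window and the window of Cbfb (chr8:105170424-105170723, plus strand) hold 0. Of 32851 such windows in the RefSeq table, 16.8% hold at least 1 match and 1.81% hold 2 or more. These are matches of letters in a window and no measure of binding.

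Cbfb (ENSMUSG00000031885.14) occupies bases 105170674 to 105217989 of chromosome 8, plus strand. The last exon of Runx1 spans 4659 bases (92601466 to 92606124), and that of Cbfb 2086 bases (105215904 to 105217989). No other annotated gene on the same strand overlaps Runx1, and the 2 small genes inside Cbfb lie outside its last exon. Reads from the 3′ end come mostly from such last exons, so they cannot tell the distal from the proximal transcripts. Which exons of Runx1 are floxed is not stated in the labels. A 3′ count includes any RNA made from an allele recombined elsewhere in the gene, so the Runx1 levels below check neither the deletion nor the amount of protein.

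The CKO pool held 884 neurons and 37482099 UMIs (median 44120.5 per neuron), and the control pool 1070 neurons and 40734464 UMIs (median 38085). Single neurons ranged from 10379 to 100856 UMIs. The deposited record gives the genotype of a neuron but not its sample. The neurons of a genotype therefore form 1 pool, there are no replicates, and no test between genotypes was made. All ratios carry exact 95% Poisson intervals, and all shares exact 95% binomial intervals, that cover counting error only. Along the columns the alphabetical order of the barcodes starts over at 4 points, which leaves 5 stretches. Stretches 1, 3 and 4 hold 355, 372 and 157 CKO neurons, and stretches 2 and 5 hold 482 and 588 control neurons. No source used here says which sample a stretch is. CKO stretch 4 stood apart from the other CKO neurons in Runx1, so values by stretch and without it are given below. 1 barcode occurs in both genotypes.

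Classes were set in order. Neurons with a Dupd1 level of at least 1 were type II, then those with a Lypd1 level of at least 3 type Ic, then those with a Calb2 level of at least 150 type Ia, and the remainder type Ib. A level is the number of UMIs of a gene per 10000 UMIs of the neuron, averaged over neurons. The rule gave 384 CKO and 242 control type Ia neurons, 216 CKO and 395 control type Ib neurons, 132 CKO and 314 control type Ic neurons, and 152 CKO and 119 control type II neurons. Markers that the rule did not use followed the names in part. B3gat1 was highest in type Ia (2.11 in CKO and 2.02 in control), Pou4f1 and Grm8 in type Ic, and Th, Plk5 and Prph in type II. Other markers did not follow them. Rxrg and Pcdh20, listed for type Ia, were higher in type II (Rxrg 0.628 in CKO and 0.565 in control type II, against 0.466 in CKO and 0.507 in control type Ia, and Pcdh20 by more). Etv4 and Smad3, listed for type II, were at or near 0 there. Calb1 was highest in type Ib in both pools, but in CKO it also stood at 1.90 in type Ia and 1.46 in type Ic, against 0.283 and 0.0894 in the same classes of control. The Calb2 cut runs through a continuum, and 173 of the CKO and 90 of the control type Ia neurons lay within 1.5 times of a cut. Class names therefore stand for ranges of marker level, most of all in CKO.

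Runx1 RNA was present in all 3 type I classes and nearly absent from type II neurons. In CKO the mean level was 2.51 in type Ic, 2.36 in type Ib, 1.65 in type Ia and 0.0300 in type II. In control it was 1.84 in type Ic, 1.73 in type Ib, 0.223 in type Ia and 0.00548 in type II. The order of the classes was thus the same in both pools, but type Ia of CKO lay nearer to the other type I classes, and type Ia of control far below them. Types Ic and Ib overlapped almost fully, with interquartile ranges of 1.40 to 3.50 and 1.53 to 3.15 in CKO and 1.19 to 2.36 and 1.02 to 2.36 in control. In type II, the class with the least Runx1, 1.32% of CKO and 0.840% of control neurons kept a Runx1 UMI once every neuron was thinned to 10000 UMIs. Free RNA in empty droplets was not analysed here. After the same thinning 58.9% of CKO (53.7 to 63.8) and 16.5% of control type Ia neurons (12.1 to 21.8) held one. Without thinning these shares were 82.8% and 43.8% in type Ia, at median depths of 50506 and 48726 UMIs, and 2.63% and 1.68% in type II, at 27102 and 25326 UMIs.

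**Figure D1:**
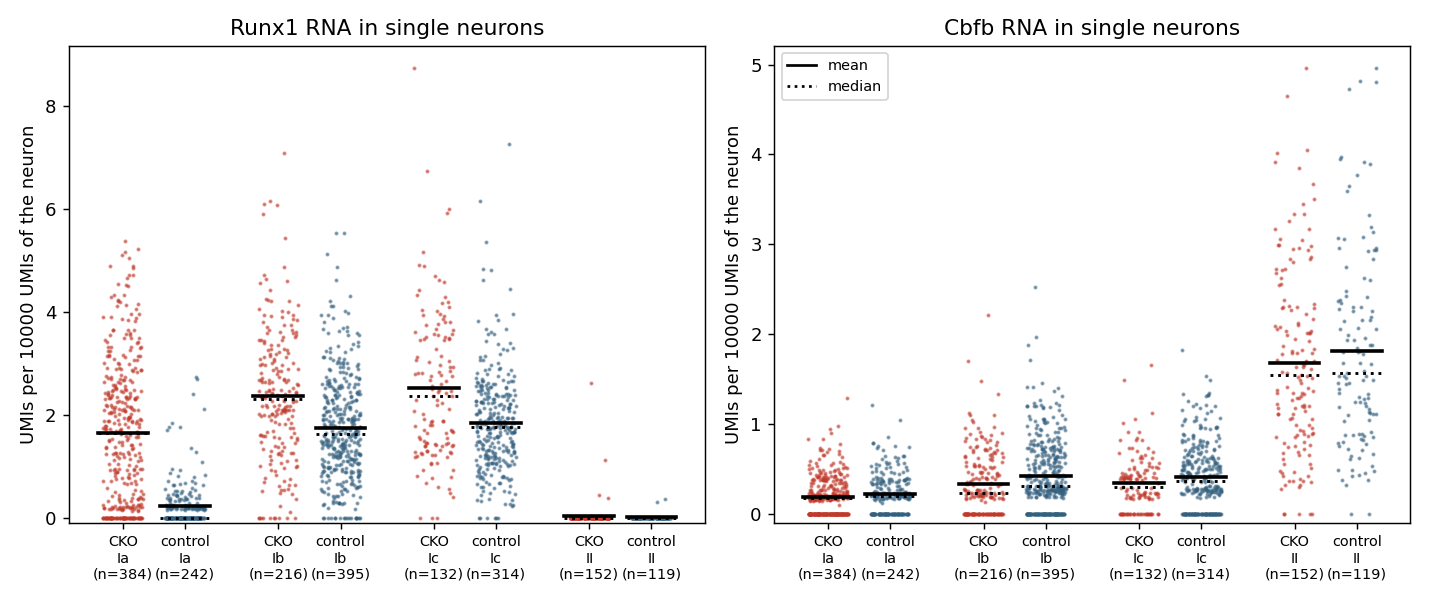
Level of Runx1 (left) and Cbfb (right) in every neuron, in UMIs per 10000 UMIs of the neuron, by class and genotype, with the mean as a solid and the median as a dotted line. Each point is 1 neuron, and the number of neurons stands under each column. Runx1 fills the range up to 5.37 in CKO type Ia and is mostly at or near 0 in control type Ia, while Cbfb is highest in type II of both genotypes.

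Runx1 was higher in CKO in every class by ratio of pooled UMI rates, and among the type I classes most so in type Ia. The 384 CKO type Ia neurons gave 3121 Runx1 UMIs and the 242 control ones 253, a ratio of 7.34 (6.46 to 8.38), which is 2.88 on the log2 scale. With the class cuts at 0.5 times their value this was 1.501, and at 2 times 2.22. In type Ib there were 2039 CKO and 2571 control UMIs and the ratio was 1.37 (1.29 to 1.45), or 0.45 on the log2 scale, which became 0.22 and 0.81 with the cuts at 0.5 and 2 times their value. In type Ic there were 1418 CKO and 2116 control UMIs and the ratio was 1.36 (1.27 to 1.45). Over all neurons, with their different mix of classes, it was 1.45 (1.40 to 1.51).

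Among all genes, few differed as much as Runx1 did in type Ia. With 0.1 added to both mean levels, 0.443% of the 3611 genes at a level of 0.5 or more were at least 1.5-fold higher in CKO type Ia neurons, and Runx1, at a log2 difference of 2.44, was 1 of these 16 genes. Over all neurons neither member passed 1.5-fold, a mark that 0.529% of genes passed upward and 0.502% downward in CKO. In types Ib and Ic the Runx1 differences of 0.43 and 0.43 stayed under it, where 0.867% and 0.884% of genes passed that mark. Cbfb stayed under 1.5-fold in both directions in every class, where the share of genes lower by at least that much was 0.305% in type Ia, 0.473% in type Ib, 0.39% in type Ic and 0.314% in type II. Runx1 in type II was below the level of 0.5 that this count needs; there 0.603% of genes were at least 1.5-fold higher in CKO.

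The type II difference rests on a few cells. In CKO 4 of 152 type II neurons held 29 Runx1 UMIs, with 19 in 1 neuron, and in control 2 of 119 held 1 UMI each. The ratio of 10.6 has an interval from 2.68 to 91.7, and it turned to -0.39 on the log2 scale when glia-rich neurons, those with 5 or more UMIs per 10000 summed over 5 glial genes, among them Sox10, Fabp7 and Apoe, were left out. The 4 CKO neurons also had a mean Calb2 level of 64.2, against 0.742 in the other CKO type II neurons, and a median of 48595.5 UMIs, against 27102. Calb2 was higher in every type I class than in type II. The 2 control neurons did not share this, with a mean Calb2 level of 0.298, against 0.426 in the other control type II neurons. The part of RNA from another class in the result was not tested.

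The shape of the distribution differed between genotypes in type Ia. In CKO 97 of 384 type Ia neurons (25.3%) had a Runx1 level under 0.25, 66 of them with no UMI, and 155 (40.4%) had a level of 2 or more. In control 184 of 242 (76.0%) were under 0.25, 136 of them with no UMI, and 4 (1.65%) reached 2. CKO type Ia neurons thus spread from none to the levels of types Ib and Ic, and control type Ia neurons gathered at the low end with a thin tail. The median was 1.63 in CKO and 0 in control. In thinned counts the variance was 2.06 times the mean in CKO type Ia, against 1.41 times in control type Ia, while it was 1.38 times in CKO and 1.41 times in control type Ib, and 1.41 times in CKO and 1.10 times in control type Ic. The CKO figure was thus the higher one in types Ia and Ic. It can rise with the mean, which was 1.59 in CKO and 0.215 in control type Ia after thinning. It therefore does not compare relative spread between the genotypes. CKO type Ia also pools stretches with mean levels from 0.08 to 2.04. In types Ib and Ic low neurons were rare, with 5.56% of CKO and 5.32% of control type Ib neurons and 2.27% of CKO and 2.55% of control type Ic neurons under 0.25. There the genotypes differed at the upper end instead. A level of 2 or more was reached by 63.9% of CKO and 35.7% of control type Ib neurons, and by 56.1% of CKO and 38.9% of control type Ic neurons.

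Calb2, which encodes the calcium buffer calretinin, sets the border between types Ia and Ib, so Runx1 was also read along the Calb2 level. In the lowest bin, under 10, the few neurons went against the rest, with a mean Runx1 level of 0.0250 in CKO (4 neurons) and 1.01 in control (8). At Calb2 levels from 10 to 30 the mean Runx1 level was 1.96 in CKO (28 neurons) and 1.87 in control (68). From 100 to 150 it was 2.57 in CKO (89) and 1.53 in control (51), and from 150 to 225 it was 2.19 in CKO (173) and 0.351 in control (90). Control neurons thus dropped to a low level over 1 step of Calb2, between 2 bins whose neurons lie next to each other in marker level. In the CKO pool the level was 1.96 or more in each bin from 10 to 225, and from 225 upward it was 1.21 (211 neurons), against 0.147 in control (152). In that top bin 34.1% of CKO and 78.9% of control neurons were under 0.25. The CKO bins pool stretches in unlike shares, and from 10 to 30 only stretch 4 had 10 or more neurons. Stretch 4 had 1.84 from 10 to 30, 2.09 from 30 to 60 and 1.88 from 60 to 100. From 150 to 225 it had 0.06, while stretches 1 and 3 had 2.67 and 1.98.

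**Figure D2:**
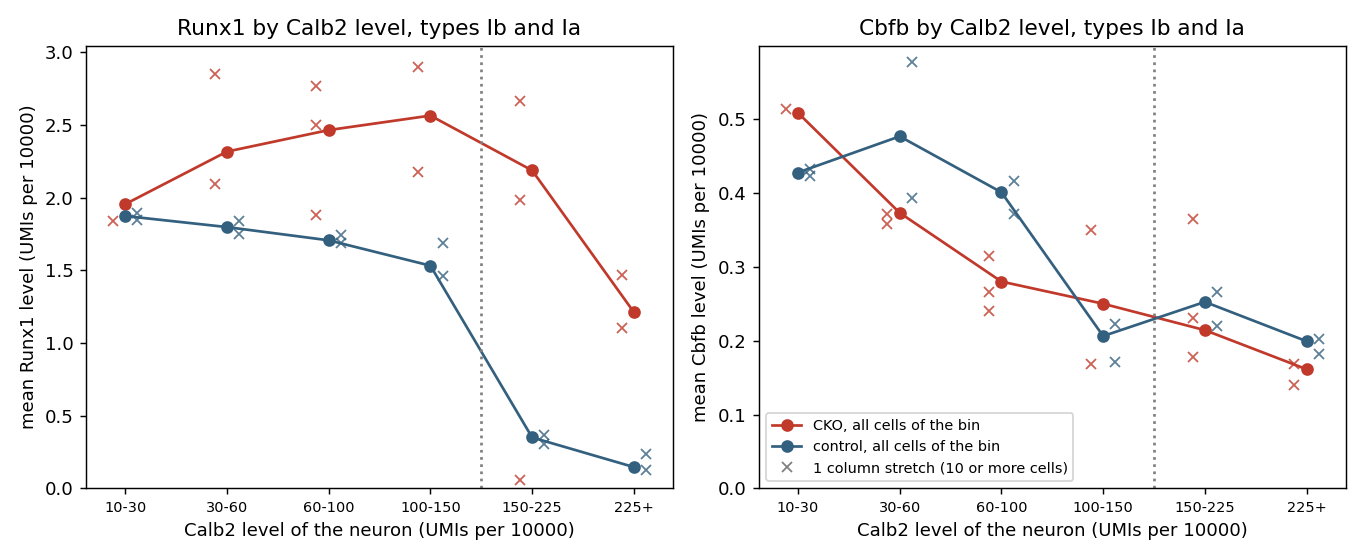
Mean level of Runx1 (left) and Cbfb (right) in bins of the Calb2 level over type Ib and Ia neurons, both in UMIs per 10000, with CKO in red and control in blue. Crosses are single column stretches with 10 or more neurons in the bin, and the dotted line is the class border at 150. Just above the border CKO stands at 2.19, apart from the stretch-4 neurons at 0.06, and control at 0.351, against 2.57 in CKO and 1.53 in control just below it.

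The CKO stretches did not share 1 level of Runx1. In type Ia the mean level in CKO was 2.04 in stretch 1, 1.47 in stretch 3 and 0.08 in stretch 4, the last from only 19 neurons, while control stretches 2 and 5 had 0.27 and 0.21. In type Ib it was 2.63, 2.40 and 1.95 in CKO and 1.76 and 1.71 in control. In type Ic it was 3.17, 2.50 and 1.95 in CKO and 1.77 and 1.94 in control. Stretch 4 lay below both control stretches in type Ia and within 0.2 of the higher control stretch in types Ib and Ic. Without it the ratio became larger in each type I class, at 2.96, 0.55 and 0.67 on the log2 scale in types Ia, Ib and Ic. Without stretch 1 it was 2.58, 0.33 and 0.19. The type Ic difference therefore rests largely on stretch 1, the deepest of the 5 at a median of 49000 UMIs. The part of depth and of the sample in it was not tested.

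**Figure D3:**
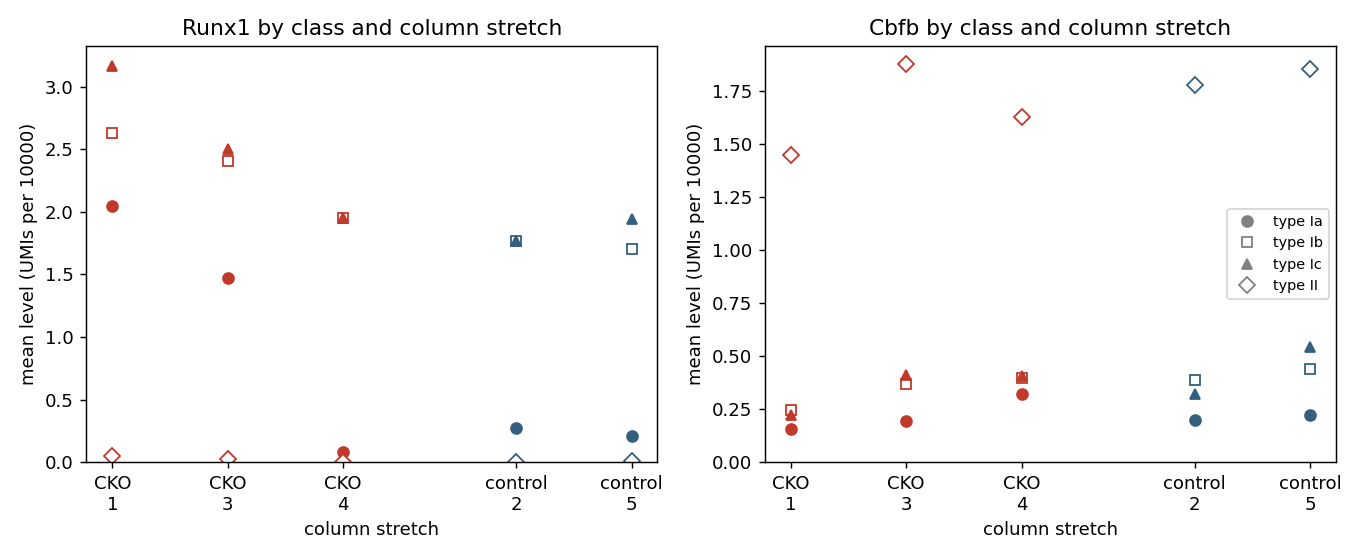
Mean level of Runx1 (left) and Cbfb (right), in UMIs per 10000, in each of the 3 CKO (red) and 2 control (blue) column stretches, with 1 marker shape per class. Runx1 in type Ia stands at 2.04 and 1.47 in CKO stretches 1 and 3 and at 0.08 in CKO stretch 4, beside 0.27 and 0.21 in control. Cbfb in type II lies above 1.4 in all 5 stretches.

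Cbfb RNA had another order of classes, with the highest level where Runx1 was nearly absent. In CKO its mean level was 1.68 in type II, 0.343 in type Ic, 0.330 in type Ib and 0.185 in type Ia. In control it was 1.81 in type II, 0.411 in type Ic, 0.415 in type Ib and 0.219 in type Ia. Types Ib and Ic stood level, and type II was clear of them in both pools. After thinning, 78.3% of CKO (70.9 to 84.6) and 79.0% of control type II neurons (70.6 to 85.9) held a Cbfb UMI, against 17.2% of CKO and 21.9% of control type Ia neurons. Within type II the highest neuron reached 4.96 in either pool.

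Between genotypes Cbfb was slightly lower in CKO, by amounts that 1 stretch could turn. The ratio of UMI rates was 0.841 (0.712 to 0.994) in type Ia, 0.791 (0.684 to 0.913) in type Ib, 0.798 (0.673 to 0.943) in type Ic and 0.908 (0.810 to 1.02) in type II. In type Ic the CKO stretches had 0.22 (stretch 1), 0.41 (3) and 0.41 (4), and the control stretches 0.32 (2) and 0.54 (5). The genotypes overlapped there, and without control stretch 5 the log2 ratio was 0.10, against -0.33 with all cells. Without CKO stretch 1 the ratio over all neurons turned from below to just above 1, at 0.0055 on the log2 scale. In types Ia and Ib it kept its sign without each stretch in turn. Leaving out the glia-rich neurons also moved these ratios, to -0.029 in type Ia, -0.087 in type Ib and 0.048 in type Ic on the log2 scale; such neurons made up 57.8% of CKO and 69.0% of control type Ia neurons.

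The members were read in the same neuron more often in types Ic and Ib than in type Ia, and almost never in type II. At 10000 UMIs per neuron both were found in 29.5% of CKO and 28.3% of control type Ic neurons, 22.7% of CKO and 25.1% of control type Ib neurons, and 8.85% of CKO and 4.55% of control type Ia neurons. Each member by itself was also rarer in type Ia. In CKO, Runx1 was found in 87.9% of type Ic and 58.9% of type Ia neurons, and Cbfb in 32.6% and 17.2%. In control the shares were 80.9% and 16.5% for Runx1, and 33.4% and 21.9% for Cbfb. The shares with both were not set against what these single shares would give. In type II both were found in 0.658% of CKO and 0.840% of control neurons, and Cbfb alone in 77.6% of CKO and 78.2% of control neurons. Only 1.32% of CKO and 0.840% of control type II neurons held a Runx1 UMI at all, so both could seldom be found there. Over the 8 groups of class and genotype, the log2 levels of Runx1 and Cbfb had a Pearson r of -0.767, a description of 8 means drawn from 2 pools. Neuron by neuron within a class the relation was weak, with r from -0.22 in CKO type Ib to 0.06 in CKO type Ic and in control type Ic. Of the rest of the family only Runx2 was read, and it was hardly seen. Runx2, the bone factor, averaged 0.106 in CKO and 0.0641 in control type II neurons and had 0 UMIs in types Ia and Ic of either pool. Runx3 is not used here.

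Genes that vary with Runx1 inside a class were sought by the Pearson r of deposited values over the neurons of 1 class and 1 genotype, among genes at a mean level of 0.5 or more. The points share a pool and their depth, and r is a description with no p. At r of 0.2 or more, CKO type Ia had 70 genes of 3457 (2.02%) and control type Ia 14 of 3512 (0.399%). CKO type Ib had 550 of 3604 (15.3%) and control type Ib 251 of 3673 (6.83%). CKO type Ic had 293 of 3636 (8.06%) and control type Ic 62 of 3659 (1.69%). Genes at -0.2 or less were fewer in types Ia and Ib, with 19 in CKO (0.55%) and 7 in control type Ia (0.199%) and 22 in CKO (0.61%) and 3 in control type Ib (0.0817%). In type Ic they numbered 205 in CKO (5.64%) and 76 in control (2.08%). The groups held 132 to 395 neurons, and r scatters more in a smaller group, so the counts are not set against each other between genotypes. Leaving out glia-rich neurons left 162 CKO and 75 control type Ia neurons, with 145 genes either way in CKO and 356 in control. In type Ib it left 105 CKO and 159 control neurons, with 520 genes in CKO and 882 in control. These counts, from fewer and unequal numbers of neurons, are likewise not set against each other. The counts were lower in thinned data, which hold fewer UMIs as well as equal depth. With every neuron thinned to 10000 UMIs, 34 genes in CKO and 12 in control type Ia, 59 in CKO and 3 in control type Ib, and 252 in CKO and 23 in control type Ic were at 0.2 or more either way. The correlation of Runx1 itself with depth was largest in type Ib among the type I classes, at 0.21 in CKO and 0.27 in control, and within 0.08 of 0 in types Ia and Ic.

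In CKO type Ia neurons Runx1 RNA ran with Calb1, which encodes the calcium buffer calbindin (r = 0.62, 384 neurons). The 96 of these neurons with the most Runx1 averaged 3.94 Calb1 UMIs per 10000, and the 96 with the least 0.321. Next came Ntng1, a membrane-anchored netrin that guides axons and synapses (r = 0.57; 1.19 in the upper 96 and 0.0480 in the lower 96), and Cdk14, a cyclin-dependent kinase of the Wnt pathway (r = 0.57; 2.30 and 0.845). Car12, a carbonic anhydrase (r = 0.41), and Fstl1, a secreted follistatin-like protein (r = 0.40), followed. For these 5 genes r stayed between 0.40 and 0.61 in both stretches large enough to be read. In thinned counts r was 0.51 for Calb1, 0.43 for Ntng1, 0.37 for Cdk14, 0.28 for Car12 and 0.16 for Fstl1. Calb2 ran the other way, at 213 in the upper and 262 in the lower 96 (r = -0.37), although every one of these neurons passed the Calb2 cut. Dstn, an actin-severing protein (r = -0.38), Htra1, a secreted protease (-0.28), Sncg, gamma-synuclein (-0.28; 0.413 in the upper and 1.52 in the lower 96), and Mxra7 (-0.27) were also lower where Runx1 was high. In thinned counts Calb2 was at -0.33, Sncg at -0.27, and Dstn, Htra1 and Mxra7 between -0.18 and -0.14. With values centred within stretches Sncg was at -0.18.

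In control type Ia neurons, 136 of which had no Runx1 UMI, the relations were weaker. Btbd9, a BTB-domain protein, led (r = 0.38, 242 neurons), at 3.06 in the 61 neurons with the most Runx1 and 0.956 in the 136 with none. Rgma, a membrane-anchored guidance molecule (0.32), Zmynd8, a chromatin reader (0.29), Irs2, an insulin receptor adaptor (0.25), and S100a10, a partner of annexin 2 (0.24), followed. After thinning, Zmynd8 and Irs2 were at 0.05 and 0.04, and Btbd9 and Rgma at 0.28 and 0.32. By rank (Spearman) Btbd9 was the lowest of these 5 genes at 0.17, and Rgma the highest at 0.32. Htra1 (-0.27) led the genes that ran against Runx1, and was also among the leading negative genes of CKO type Ia. Ctsb, Tacc2, Mdga1 and Ebf1 followed. After thinning, Htra1 and Mdga1 were at -0.22 and -0.23, and Ctsb, Tacc2 and Ebf1 at -0.09, -0.07 and -0.03. Calb1 and Ntng1, the leading genes of CKO type Ia, had levels of 0.283 and 0.0932 in control type Ia, too low for the count. The summed level of the 3 type Ib markers, mostly Calb1, ran with Runx1 in both pools, with r of 0.61 in CKO and 0.31 in control type Ia. The part of other classes' RNA, or of the Calb2 cut, in these relations was not tested. The lists shared 2 of the positive genes, 2.86% of the CKO and 14.3% of the control list.

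**Figure D4:**
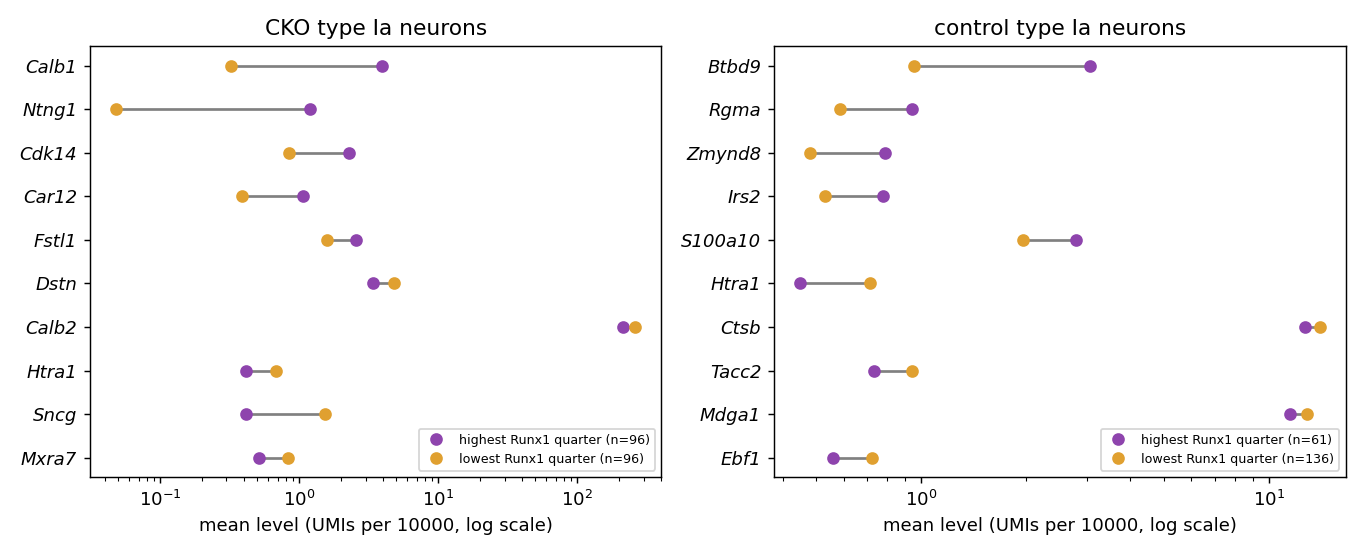
Mean level, in UMIs per 10000 on a log axis, of the genes most correlated with Runx1 in type Ia neurons of CKO (left) and control (right), in the 25% of neurons with the highest (purple) and the lowest (orange) Runx1 level. In control the lowest group is the 136 neurons with no Runx1 UMI. Calb1 stands at 3.94 and 0.321 in CKO, and Btbd9 at 3.06 and 0.956 in control.

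In type Ib the leading genes differed between the genotypes apart from Cdk14. In CKO type Ib they included Cdk14 (r = 0.52, 216 neurons), Foxp1, a forkhead transcription factor (0.49; 3.83 in the 54 neurons with the most and 2.72 in the 54 with the least Runx1), Aak1, an endocytic kinase (0.46), and Fam57b (0.46). In control type Ib they were Ntng1 (0.60, 395 neurons), Btbd9 (0.59; 14.7 in the 99 neurons with the most and 11.1 in the 99 with the least Runx1), S100a10 (0.46), Vsnl1, a neuronal calcium sensor (0.43), and Cdk14 (0.43). Ntng1, Vsnl1 and S100a10 were at 0.43, 0.45 and 0.32 in CKO type Ib. Foxp1, Aak1 and Fam57b were at 0.21, 0.23 and 0.30 in control type Ib. Btbd9 was not part of the CKO relation, with r of -0.05 in CKO type Ib, where its mean level was 7.15, against 13.5 in control type Ib. The genes that ran against Runx1 were Itm2b, Gnai2, Rsrp1, Qk and Hook3 in CKO (-0.34 to -0.25), and Myl1, Mdga1 and Ctsb in control. Myl1, a myosin light chain, was at 0.0401 in the upper and 2.59 in the lower 99 neurons of control type Ib. By rank (Spearman) 12 genes in control type Ib reached 0.2 either way, in place of 254. Of the genes named there, Ntng1 was at 0.33 and Cdk14 at 0.27 by rank. The others fell short, with Btbd9 at 0.19, Vsnl1 at 0.18, S100a10 at 0.08, Ctsb at -0.11, Myl1 at -0.06 and Mdga1 at -0.01. In thinned counts the named positive genes were at 0.12 to 0.30 in CKO and at 0.10 to 0.21 in control type Ib. The CKO relation of Fam57b rested on stretch 1, with r of 0.69 there, 0.06 in stretch 3 and 0.009 in stretch 4. The lists shared 84 of the positive genes, 15.3% of the CKO and 33.5% of the control list.

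In CKO type Ic neurons Runx1 ran with Nefm, the medium neurofilament (r = 0.47, 132 neurons; 59.4 in the 33 with the most and 32.5 in the 33 with the least Runx1). Map4, a microtubule protein (0.44), Cdkn1b, a cell cycle inhibitor (0.43), and Ppm1h, a phosphatase (0.41), had lower values. Scg5, a chaperone of prohormone convertase, ran against it (-0.44; 3.98 in the upper and 11.2 in the lower 33), as did Faim2 (-0.38), Gldn, gliomedin (-0.38), Eef1b2 (-0.38) and Cpne6, a copine (-0.36). Runx1 itself differed between the CKO stretches of this class. With values centred within stretches Nefm was at 0.34, Scg5 at -0.31, Faim2 and Cpne6 at -0.23 and Gldn at -0.22, and within stretch 4 Gldn was at -0.0080. In control type Ic the leading genes included the potassium channel Kcna2 (0.34, 314 neurons), Cdk14 (0.33), the potassium channel Kcna1 (0.31) and the noncoding RNA Kcnq1ot1 (0.30). Ldhb, Pebp1, Ppia, Aldoa and Acot13 ran against Runx1 there, at -0.34 to -0.28. In thinned counts of CKO type Ic, Nefm was at 0.33, Cdkn1b at 0.22, Ppm1h at 0.18 and Map4 at 0.13. The negative genes named were at -0.29 to -0.18. In thinned counts of control type Ic, Kcna1 was at 0.22, Kcna2 and Kcnq1ot1 at 0.20 and Cdk14 at 0.10. The negative genes were at -0.25 to -0.09 there. The lists shared 23 of the positive genes (7.85% of the CKO and 37.1% of the control list) and 17 of the negative ones.

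12 genes had r of 0.2 or more with Runx1 in at least 4 of the 6 type I groups, and 0 had it in all 6. Cdk14 had it in 5, and its r was just short of 0.2 in CKO type Ic. Calb1, Foxp1, Nefm, Kcna1, Atp1b1, Unc80, Mbnl2, Rgma, Slc17a6 and Kcnc1 each had it in 4. Kcna1 and Kcnc1 encode potassium channels of fast-firing neurons, Atp1b1 a subunit of the sodium pump, Unc80 a part of the sodium leak channel, and Slc17a6 a vesicular glutamate transporter. In thinned counts none of the 12 reached 0.2 in 4 groups. With values centred within stretches Cdk14 reached it in all 6, Calb1 fell short in CKO type Ic (0.11, against 0.31 uncentred), and Atp1b1 reached it in 2. Summed levels of the same 5 glial genes moved with Runx1 in the opposite direction in CKO types Ib and Ic, with r of -0.18 and -0.20, and in control type Ic, at -0.17. In control type Ib r was 0.02. The part of glial RNA in these relations was not tested.

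**Figure D5:**
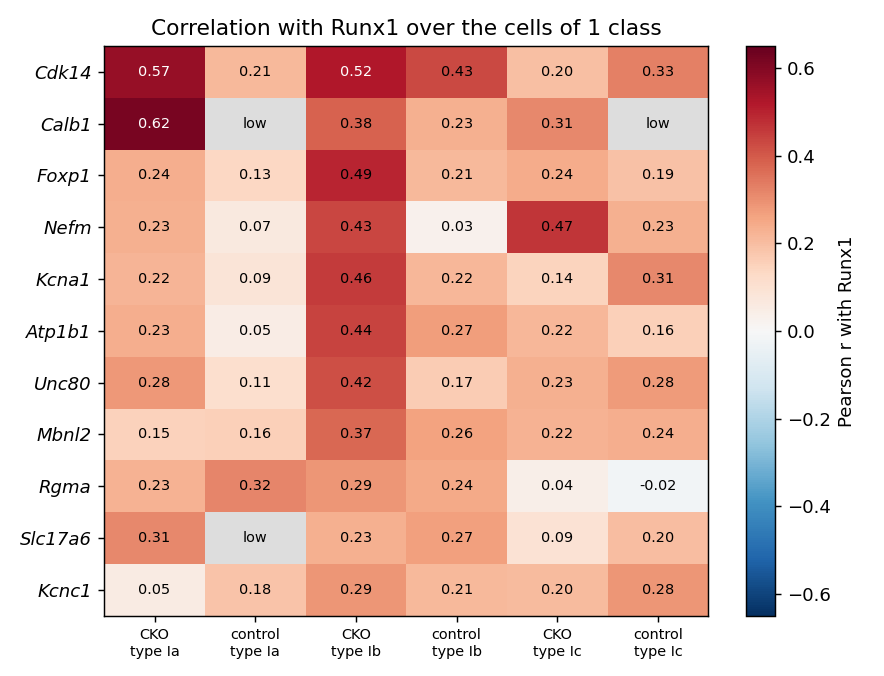
Pearson r with Runx1 over the neurons of each type I class and genotype for 11 of the 12 genes that reached 0.2 in at least 4 of the 6 groups, with red for positive values. Groups in which a gene's mean level was under 0.5 are grey and marked low. Cdk14 runs from 0.20 in CKO type Ic to 0.57 in CKO type Ia, and Calb1 stands at 0.62 in CKO type Ia.

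The windows around the start sites of the genes named for their r with Runx1 were read for TGTGGT on either strand. Of these 49 genes 32 are in the RefSeq table, and 6 of their 46 windows (13.0%) held a match, beside 16.8% of all windows. The matches lay in Car12, Htra1, Mxra7, Ebf1 and Pebp1.

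Genes whose mean levels over the 8 groups of class and genotype were most like those of Runx1 were Napg, a vesicle fusion adaptor (r = 0.984 of log2 levels), Ide, the insulin-degrading enzyme (0.979), Mark2, a microtubule kinase (0.974), Lgr5, a Wnt pathway receptor (0.973), and Csnk2a1, a casein kinase subunit (0.970). Of 4672 genes, 250 reached 0.9, so this likeness is common. Of these 5, Lgr5 varied most, at 0.361 in CKO and 0.103 in control type Ia, 0.730 in CKO and 0.358 in control type Ib, 0.842 in CKO and 0.673 in control type Ic, and 0.0264 in CKO and 0.0189 in control type II. For Cbfb they were Rbms1 (0.999), As3mt (0.998), Prkacb (0.997), Igsf8 (0.996) and Snd1 (0.994), and 1104 genes reached 0.9. Rbms1, an RNA-binding protein, shows the pattern, at 1.88 in CKO and 1.93 in control type II and between 0.368 and 0.632 in the type I groups.

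Cofactors through which Runx1 acts in other cells were present in part, and 1 of them passed 1.5-fold in a class. Such a pass is rare among all genes, at 0.305% to 0.884% per class and direction, so a count of 0 in a short list is near the background. Of the matrix's genes 52.3% reached a level of 0.2 in some class and genotype. Of the 3 ETO family corepressors, named after the partner to which Runx1 is fused in leukaemia, all reached a level of 0.2 in some class. Cbfa2t3 was lower in CKO by 0.67 on the log2 scale in type Ib (0.359 in CKO and 0.629 in control) and was the only one of the 3 past 1.5-fold in a class. In type Ib the CKO stretches had 0.14 (stretch 1), 0.32 (3) and 0.71 (4), and the control stretches 0.53 (2) and 0.70 (5), so CKO stretch 4 lay level with control. Of the Groucho family of corepressors and related genes, 6 are in the matrix, of which Tle4 and Aes reached 0.2, and neither passed 1.5-fold. Aes averaged 9.12 in CKO and 7.78 in control type Ia, where its r with Runx1 was 0.34 in CKO and 0.14 in control. In type Ia the CKO stretches had 9.29 (stretch 1), 9.11 (3) and 7.77 (4, from 19 neurons). The control stretches had 7.48 (2) and 7.86 (5), so CKO stretch 4 lay level with control. Of 13 other cofactors, among them histone deacetylases and acetyltransferases, 12 reached 0.2 and 0 passed 1.5-fold in any class, with a median log2 difference between -0.11 in type II and -0.03 in type Ia. The median over all genes tested was between -0.04 in type Ib and -0.01 in type Ia.

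Of 11 partner factors known from blood, 5 are in the matrix, of which Gata2 and Ldb1 reached 0.2, and neither passed 1.5-fold. Blood cells express Runx1 strongly, but of 7 blood and immune markers only Csf1r is in the matrix, and it had a summed level of 0 in every type I group. Of 12 genes that depend on Runx1 in mouse pain-sensing neurons, 3 are in the matrix and none of these reached 0.2; the others were not analysed here. Of 5 genes that Runx1 holds down there, 3 are in the matrix and Calca reached 0.2, at 0.244 in CKO and 0.239 in control type II neurons, where Runx1 was nearly absent.

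Among 13 transcription factors of sensory neurons, 9 reached 0.2. Pou4f1, a POU factor and type Ic marker, was higher in the CKO pool in type Ia (0.0801 in CKO and 0.00851 in control, from 148 and 8 UMIs). The same held in type Ib (0.332 in CKO and 0.162 in control), and type Ic stood at 1.03 in CKO and 1.17 in control. CKO stretch 4 did not share this. It had 0 in type Ia, against 0.024 and 0.004 in control stretches 2 and 5. In type Ib it had 0.17, between their 0.22 and 0.12, while CKO stretches 1 and 3 both had 0.39.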

How the data were processed

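The members and the gene lists were chosen with earlier results of these data known. Cell Ranger, Seurat and mm10 appear without versions in the submitters' processing notes, and filters on cells are not given in the sources used here. The authors deposited natural log values, ln(1 + UMIs per 100000 UMIs of a cell), for 14715 genes and 1954 neurons, with a record of genotype per cell. The unit was settled from the values, and nonzero values came out as whole UMIs in 100% of cases, to within 0.01. Depth was 10379 to 100856 UMIs per neuron.

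Levels are UMIs per 10000. Cells could not be tied to samples, so no test was run. Ratios are of pooled UMI rates, with exact conditional Poisson intervals, and shares have exact Clopper-Pearson intervals after thinning every neuron to 10000 UMIs (0 neurons were shallower). Column stretches came from the barcode order and were noticed after the data were seen. They are not replicates. Cells were joined by position, and no doublet caller was run. Beside Runx1 and Cbfb, the text names in each class and genotype the 5 genes each way with the largest r with Runx1 (0.2 or more in size, the same sign in each stretch of 20 or more cells, without predicted, sex-linked and mitochondrial genes), the 5 genes most like each member over 8 groups, and up to 4 members a list at 0.2 or more. Some genes under this rule are not reported here. Type II was left out of the correlations, against the plan, since only 4 CKO and 2 control neurons there held a Runx1 UMI. Alternatives were the pseudocount of 0.1, thinning, the class cuts at 0.5 and 2 times their value, cells near a cut or with 5 or more UMIs per 10000 over glial genes left out, each stretch left out, rank correlation and other level minima. The 5-gene glial list was added after seeing the data, since the planned 8-gene list left almost no type I neurons. Python 3.11.15, numpy 2.4.6, pandas 2.3.3, scipy 1.17.1 and matplotlib 3.10.9 were used, and the code was tested on simulated data.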

Additional observations from a re-analysis of the deposited data

How the results depend on the processing

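Of the 55 alternatives to the Runx1 ratios, 26 moved the value, 2 turned it and 27 kept it within its counting interval. For Cbfb 13 moved, 3 turned and 39 kept it. The causes were not tested. No paired analysis was possible because cells cannot be tied to samples, although CKO and control samples share the numbers 4 and 5. All ratios here are log2 of CKO over control. With all neurons of both pools Runx1 stood at 0.54, at 0.42 with 0.1 added to the levels, at 0.43 after thinning, at 0.20 without cells near a class cut, at 0.45 without cells rich in the 8 planned glial genes, at 0.61 without those rich in 5 glial genes, and at 0.32 to 0.65 with each stretch left out. In type Ia it stood at 2.88, at 2.44 with 0.1 added, 1.501 with the class cuts at 0.5 times and 2.22 at 2 times their value, 3.09 without cells near a cut, and 2.53 to 3.0 with each stretch left out. In type Ib it stood at 0.45, at 0.22 and 0.81 with the cuts at 0.5 and 2 times, 0.31 without cells near a cut, 0.58 without glia-rich cells, and 0.33 to 0.55 with each stretch left out. In type Ic it stood at 0.44, at 0.58 without glia-rich cells, and 0.19 to 0.67 with each stretch left out. In type II it stood at 3.41, at 0.30 with 0.1 added, at -0.40 and -0.39 without cells rich in the 8 or the 5 glial genes, and 2.45 to 3.73 with each stretch left out. Cbfb over all neurons stood at -0.22, at -0.058 with 0.1 added, -0.031 after thinning, -0.050 without cells near a cut, -0.020 and -0.054 without cells rich in the 8 or the 5 glial genes, and -0.34 to 0.0055 with each stretch left out. In type Ib it stood at -0.34, at -0.12 with the cuts at 0.5 times, -0.087 without glia-rich cells, and -0.49 to -0.11 with each stretch left out. In type Ic it stood at -0.33, at 0.048 without glia-rich cells, and -0.68 to 0.099 with each stretch left out. In type II it stood at -0.14, at 0.095 after thinning, and -0.32 to -0.0022 with each stretch left out.

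The share of neurons with a Runx1 UMI was 59.2% in CKO and 54.8% in control after thinning to 10000 UMIs, 74.3% and 74.1% without thinning, 48.4% and 40% at 5000 UMIs, and 44.9% and 34.1% where 2 UMIs were required. With each stretch left out it was 54.6 to 63.5% in CKO and 50.2 to 60.4% in control. For Cbfb the shares were 32.9% in CKO and 36.4% in control, 69.1% and 73.2% without thinning, 18.4% and 22.0% at 5000 UMIs, and 10.6% and 11.1% where 2 UMIs were required, and 30.4 to 37.4% in CKO with each stretch left out.

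Genes past 0.2 in size of r with Runx1 numbered 89 in CKO and 21 in control type Ia, 572 in CKO and 254 in control type Ib, and 498 in CKO and 138 in control type Ic. By rank these became 162 in CKO type Ia, 257 in CKO type Ib and 12 in control type Ib. Thinning gave 34, 59 and 252 in CKO types Ia, Ib and Ic, and 12, 3 and 23 in the same classes of control. Without glia-rich cells there were 145 in CKO and 356 in control type Ia, 520 in CKO and 882 in control type Ib, and 1003 in CKO and 387 in control type Ic, from as few as 45 neurons. Without cells near a cut there were 83 in control type Ia, 990 in CKO and 168 in control type Ib. A level minimum of 0.2 gave 35 and one of 1 gave 10 in control type Ia, and one of 1 gave 319 in CKO type Ic. Depth limits what a neuron with no UMI of Runx1 or Cbfb can show, since a low level and none cannot be told apart in it.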
